A study of Mus musculus with 9 samples.

Results

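The RNA levels of 10 genes of the DNA methylation machinery and of H3K36me3 recognition were examined in mouse colonic intestinal epithelial cells (IECs). The genes were taken by symbol from the count table, and all 10 were found among its 46095 rows. They are the DNA methyltransferases Dnmt1, Dnmt3a and Dnmt3b, the maintenance cofactor Uhrf1, the 5-methylcytosine dioxygenases Tet1, Tet2 and Tet3, and the H3K36me3 readers Psip1, Zmynd11 and Morf4l1. The libraries came from 4 Smad4Vil-KO samples and 5 Smad4Vil-KO;Setd2Vil-KO samples. All were treated with AOM/DSS, the carcinogen azoxymethane followed by dextran sodium sulphate, which injures the colonic mucosa. Both genotypes carry floxed Smad4 deleted by Villin-Cre, which acts in intestinal epithelium, on a C57BL/6j background, and they differ in the added deletion of floxed Setd2. The Smad4 deletion is thus shared by both groups as labelled, and no mice with intact Smad4 were analysed here. Smad4 RNA was present in all 9 libraries, at 54.3 to 92.7 CPM in Smad4Vil-KO and 38.2 to 114 CPM in Smad4Vil-KO;Setd2Vil-KO libraries, and the counts do not separate the deleted exons from the rest of the gene. The labels give neither age nor sex, and nothing in them says that libraries were made from separate mice, so p-values measure the spread between these libraries.

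SETD2 is the main enzyme that trimethylates histone H3 lysine 36 (H3K36me3), a mark laid down over transcribed gene bodies. The PWWP domain of the de novo methyltransferases DNMT3A and DNMT3B binds methylated H3K36, which links the mark to gene body DNA methylation, whereas DNMT1 copies methylation after replication together with UHRF1, which recognises hemimethylated CpG. TET enzymes oxidise 5-methylcytosine, and PSIP1, ZMYND11 and MORF4L1 read H3K36me3 through a PWWP or chromo domain. The comparison asked whether the transcripts of these enzymes and readers differed when Setd2 was deleted on top of Smad4.

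Setd2 RNA was checked first. Its normalised count was 118, 120.1, 99.2 and 114 CPM (counts scaled to a common library size, after TMM normalisation) in the Smad4Vil-KO libraries and 57.8, 87.1, 55.7, 53.9 and 76.1 CPM in the Smad4Vil-KO;Setd2Vil-KO libraries, with no overlap (log2 fold change -0.77, SE 0.145, edgeR quasi-likelihood test, adjusted p = 0.00756). Library totals ranged from 12487129 to 17120202 counts. Smad4Vil-KO;Setd2Vil-KO replicates 1 and 2 stood apart: mitochondrial genes took 5.62% and 6.29% of their counts, against 8.12% to 10.3% in the other 7 libraries. Y-linked counts were 4907, 4745 and 3857 in Smad4Vil-KO;Setd2Vil-KO replicates 1, 2 and 5 and at most 28 elsewhere, so sex and genotype were partly confounded. The defining markers of colonic epithelium were detected, and their summed level was 24880 to 29740 CPM in Smad4Vil-KO and 18240 to 25020 CPM in Smad4Vil-KO;Setd2Vil-KO libraries. Of the 15 markers, 10 had a log2 fold change below 0, Muc2 among them. By edgeR 2 of the 15 were called lower and 0 higher, beside 6.54% and 6.76% of all genes tested. The 15 leukocyte markers summed to 188 to 323.2 CPM against 117.3 to 259.3 CPM, of which Ly6g alone gave 111 to 172 against 57.1 to 135 CPM. Of the 15, 8 had a log2 fold change above 0. Both edgeR and DESeq2 called 0 of them and limma-voom 1, and 1 was lower at an unadjusted p under 0.05 in edgeR (15.3% of all genes). The 14 markers of fibroblasts, muscle, endothelium and glia summed to 24.64 to 41.64 CPM against 32.73 to 71.66 CPM. Of the 7 tested edgeR and limma-voom called 0 and DESeq2 1, with 2 higher at an unadjusted p under 0.05 in edgeR (15.3% of all genes). The 11 enterocyte markers of small intestine summed to 539.6 to 663.8 CPM against 663.1 to 1719 CPM. Of the 9 tested, 8 had a log2 fold change above 0, and edgeR called 6 higher and 0 lower, beside 6.76% and 6.54% of all genes tested. The part of these differences in cell makeup in the results that follow was not tested. In RNA from bulk cells, fewer cells of a type and less RNA per cell cannot be told apart.

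None of the 10 genes passed the edgeR test at an adjusted p under 0.05. Over all 14593 genes tested, 986 (6.76%) were higher and 955 (6.54%) lower in Smad4Vil-KO;Setd2Vil-KO IECs, 13.3% of the genes tested in all. Of the 10, 1 was called higher and 0 lower by DESeq2, which called 10% of all genes higher and 9.12% lower. By limma-voom with sample quality weights (the form used throughout) 1 was called higher and 1 lower, beside 20.1% of all genes (9.61% higher, 10.5% lower). With Y-linked counts as a covariate 0 were called, beside 8.81% (4.47% higher, 4.33% lower), and in the 6 libraries without such counts 1 was higher and 1 lower, beside 19.4% (9.29% higher, 10.1% lower). At an unadjusted p under 0.05, 1 of the 10 was higher (Uhrf1) and 1 was lower (Tet3), where 30.6% of all genes passed, 15.3% in each direction. For none of the 10 genes did the libraries of one genotype lie wholly above or below those of the other, while 17.2% of all genes tested did so (8.34% above, 8.87% below). The log2 fold changes ran from -0.38 (Tet1) to 0.50 (Uhrf1) with a median of 0.088, beside a median of -0.0006 over all genes tested. Each gene's own interval is plotted with the fold changes, and these intervals, not the missing calls, say how large a change the libraries leave room for.

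**Figure D1:**
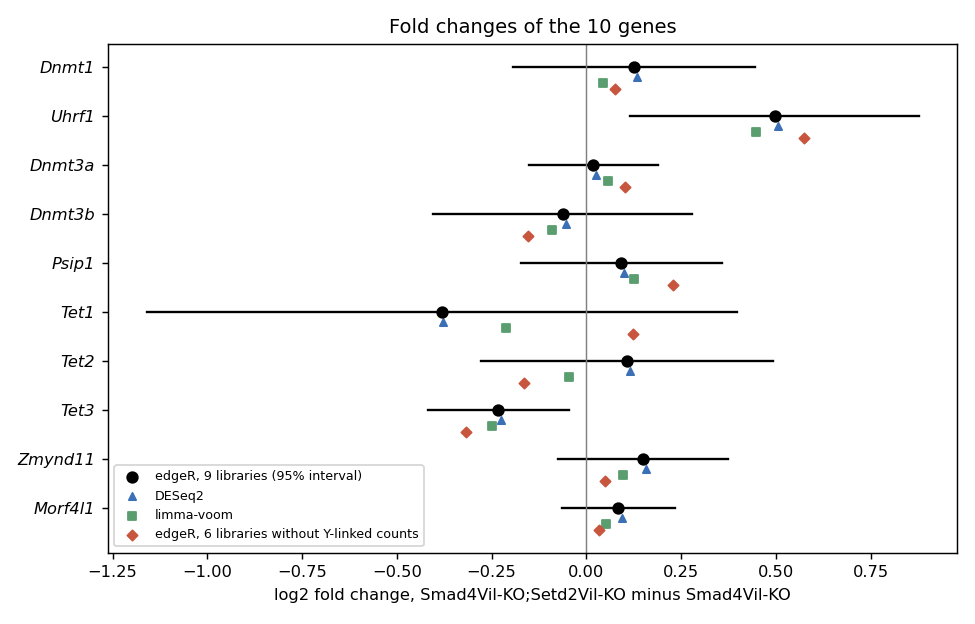
Log2 fold change (Smad4Vil-KO;Setd2Vil-KO minus Smad4Vil-KO, horizontal axis) of each of the 10 genes, with the 95% interval of the edgeR fit on 9 libraries (black) and the estimates of DESeq2, limma-voom and edgeR on the 6 libraries without Y-linked counts. The intervals of Uhrf1 (0.12 to 0.88) and Tet3 (-0.42 to -0.05) leave out 0, those of the other 8 genes include it, and the estimates for Tet1 and Tet2 lie on both sides of 0.

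The levels themselves spanned a wide range. Values are per kilobase of annotated exon, with the exons of all transcripts of a gene merged, so that long untranslated ends lower the value. The order holds for this length only. The merged exons of Morf4l1 cover 9754 bases and its longest protein-coding transcript 1882, against 7377 and 5870 for Dnmt1. On merged exons Dnmt1 and Uhrf1 were the highest, at 14.98 ± 0.80 and 14.2 ± 1.06 CPM per kb in Smad4Vil-KO libraries (SD, n = 4), and their ranges overlapped. Tet3 followed at 9.74 ± 0.713 CPM per kb, then Morf4l1 at 7.47 ± 0.182, Zmynd11 at 6.25 ± 0.345 and Psip1 at 6.22 ± 0.530, of which Zmynd11 and Psip1 did not differ beyond their spread. Dnmt3a (3.42 ± 0.154), Tet2 (2.76 ± 0.222) and Dnmt3b (1.14 ± 0.146 CPM per kb) were lower, each with a range clear of its neighbours. Tet1 was at 0.0857 ± 0.0151 CPM per kb, and its 7 to 27 counts per library make it the least certain of the 10 values. In Smad4Vil-KO;Setd2Vil-KO libraries the order of means was the same except that Uhrf1 (20.003 ± 5.26 CPM per kb, n = 5) stood above Dnmt1 (16.3 ± 3.75), with overlapping ranges.

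**Figure D2:**
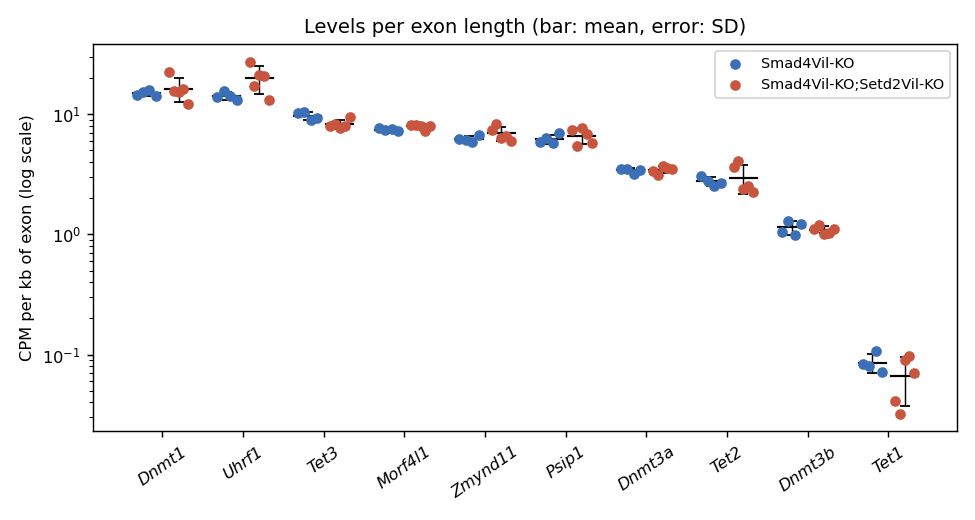
Level of each gene as CPM per kilobase of merged exon (vertical axis, log scale) in every library, with the mean and SD of 4 Smad4Vil-KO and 5 Smad4Vil-KO;Setd2Vil-KO libraries. The maintenance pair Dnmt1 and Uhrf1 lies near 14.98 and 14.2 in Smad4Vil-KO libraries, and Tet1 lies at 0.0857, the lowest of the 10.

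Among the maintenance genes, Uhrf1 had the largest fold change of the 10. Uhrf1 (chr17:56303321-56323486, mm10, plus strand), whose product recruits DNMT1 to hemimethylated CpG, had 58.9, 66.5, 60.4 and 55.7 CPM in Smad4Vil-KO libraries and 117, 73.5, 90.5, 88.7 and 56.4 CPM in Smad4Vil-KO;Setd2Vil-KO libraries. Of the Smad4Vil-KO;Setd2Vil-KO libraries, 1 to 4 were above all Smad4Vil-KO libraries and replicate 5 lay among them. The mean was 60.4 ± 4.52 CPM (SD, n = 4) against 85.2 ± 22.4 CPM (SD, n = 5), a 1.41-fold difference (95% interval 1.08 to 1.84) with an edgeR adjusted p of 0.0816. Without Smad4Vil-KO;Setd2Vil-KO replicate 5 the log2 fold change was 0.63 (edgeR adjusted p = 0.0114), and without Smad4Vil-KO;Setd2Vil-KO replicates 1 and 2 it was 0.39 (edgeR adjusted p = 0.115). Uhrf1 was also called by DESeq2 (adjusted p = 0.0356) and by limma-voom with quality weights (adjusted p = 0.0364), so its call depended on the fit.

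Dnmt1 (chr9:20907209-20959888, minus strand), the maintenance methyltransferase, did not follow to the same extent. It had 107, 113, 117 and 104 CPM in Smad4Vil-KO libraries and 165, 116, 113, 119 and 89.2 CPM in Smad4Vil-KO;Setd2Vil-KO libraries. A single library, replicate 1, was far above the Smad4Vil-KO range and replicate 5 was below it. The mean was 110.5 ± 5.90 against 120.5 ± 27.7 CPM, with a log2 fold change of 0.13 (95% interval -0.19 to 0.45, edgeR adjusted p = 0.590). Without Smad4Vil-KO;Setd2Vil-KO replicate 1 the log2 fold change was -0.01, and without replicates 1 and 2 it was -0.04, while in the 6 libraries without Y-linked counts it was 0.08, so no direction can be read.

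Ratios within a library do not depend on how libraries are scaled, and 5 of them were compared by two-sided exact permutation tests of the genotype labels, adjusted over the 5. The log2 ratio of Uhrf1 to Dnmt1 was -0.87 ± 0.081 in Smad4Vil-KO and -0.51 ± 0.147 in Smad4Vil-KO;Setd2Vil-KO libraries, a difference of 0.36 (exact permutation p = 0.00794, the smallest that this design allows, adjusted p = 0.0397). It was higher in 5 of 5 Smad4Vil-KO;Setd2Vil-KO libraries than in any Smad4Vil-KO library, including replicate 5, where both genes were low. The log2 ratio of Uhrf1 to the mean of 26 replication and mitosis genes was 0.60 ± 0.033 against 0.85 ± 0.11, a difference of 0.25 (exact permutation p = 0.0159, adjusted p = 0.0397), and again 5 of 5 libraries were above the Smad4Vil-KO range. The same ratio for Dnmt1 was 1.47 ± 0.081 against 1.36 ± 0.099, a difference of -0.11 (exact permutation p = 0.127, adjusted p = 0.212), with 3 of 5 libraries below the Smad4Vil-KO range. In the 6 libraries without Y-linked counts the differences were 0.50 for Uhrf1 to Dnmt1 and 0.32 for Uhrf1 to the replication genes (exact permutation adjusted p = 0.0833 for both), a design too small to pass the threshold.

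**Figure D3:**
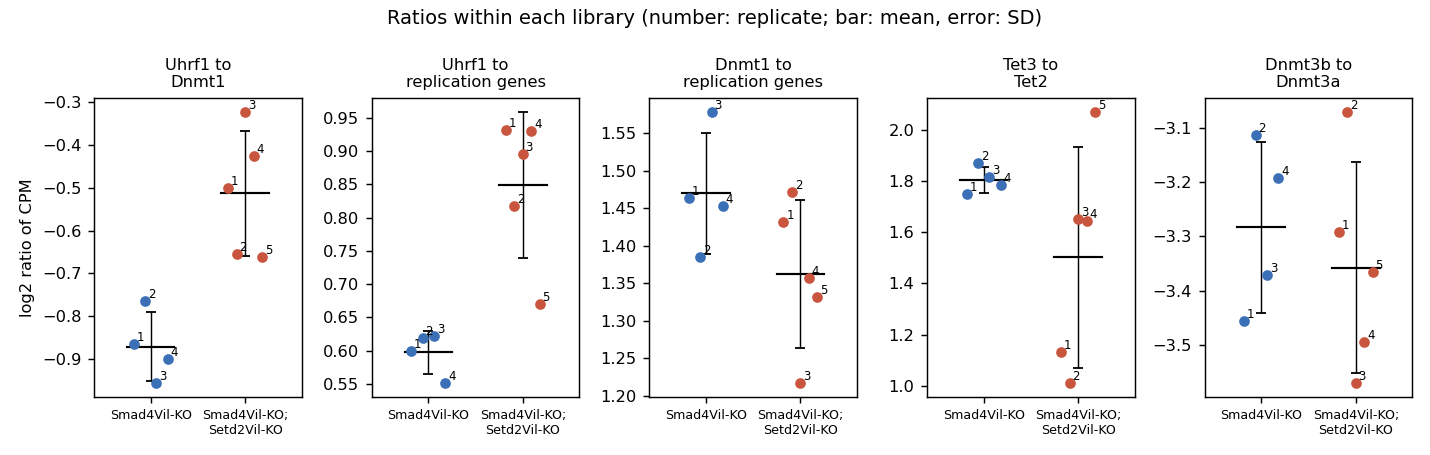
Log2 ratio of CPM within each library (vertical axes, each with its own range that does not start at 0) for the 5 ratios tested, with the mean and SD of each genotype and the replicate number beside each point. All 5 Smad4Vil-KO;Setd2Vil-KO libraries lie above all 4 Smad4Vil-KO libraries for Uhrf1 to Dnmt1 and for Uhrf1 to the replication genes, and the genotypes overlap for the other 3 ratios.

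Both maintenance genes varied with the replication and mitosis genes from library to library. Over the 9 libraries, the deviations of log2 CPM from each genotype's mean correlated with those of the 26 genes' mean at r = 0.989 for Uhrf1 and 0.928 for Dnmt1, and with each other at r = 0.921. These coefficients describe 9 libraries that share depth and composition, and they carry no test. Of the 26 genes tested from this list, which holds licensing, polymerase and mitotic genes, 23 had a log2 fold change above 0 with a median of 0.23. None was called by edgeR, 8 were higher at an unadjusted p under 0.05 (15.3% of all genes), and 2 were called by DESeq2 and 2 by limma-voom. The summed level of all 27 genes of the list, tested or not, was highest in Smad4Vil-KO;Setd2Vil-KO replicate 1 (2683 CPM) and lowest in replicate 5 (1598 CPM). Among the Smad4Vil-KO;Setd2Vil-KO libraries Uhrf1 and Dnmt1 were also highest in replicate 1 and lowest in replicate 5. The 9473 genes whose mean reached 10 CPM were ranked by likeness, and the deviations most like those of Dnmt1 were of Mis18a, Slc39a10 and Nup85 (r = 0.987, 0.986 and 0.985), and those most like Uhrf1 were of Ssr1, Psmd1 and Gpn1 (r = 0.987, 0.985 and 0.975).

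The promoters of Dnmt1 and Uhrf1 share letters that other members' promoters lack in the windows searched. The 250 bases before each RefSeq start (GRCm38.p6, which is mm10) were searched on both strands for TTTGGCGC, TTTGCCGC, TTTCGCGC and TTTCCCGC, the letters bound by E2F factors of the G1/S transition. A match was found for Dnmt1 and Uhrf1 and for none of the other 7 genes with a window (Psip1 had no entry), beside 1.86% of all 32851 windows and 2.16% of 27025 genes. The letters searched contain CG, and the matched windows held 26 CpG for Dnmt1 and 30 for Uhrf1, against a median of 6 over all windows. The share among windows of like CpG content was not computed. Windows also differ between genes: Dnmt1 and Uhrf1 had more than 1 each, and that of Tet3 lay 14714 bases from its principal start. The same letters were found for 6 of 21 replication and mitosis genes with a window and for Hells and Cdca7 among 13 partners of DNA methylation with a window, of which Hells was called higher and Cdca7 was not (edgeR adjusted p = 0.476). Pclaf, another called partner, had none. The 30 bases around the match are shown for both maintenance genes and for Hells, a called partner, with the match in capitals.
Dnmt1 (chr9:20952824-20952853, minus strand, all 30 bases within an annotated exon): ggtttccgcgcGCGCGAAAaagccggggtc
Uhrf1 (chr17:56304117-56304146, plus strand, within the gene and outside its annotated exons): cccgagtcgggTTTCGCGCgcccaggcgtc
Hells (chr19:38930917-38930946, plus strand, all 30 bases within an annotated exon): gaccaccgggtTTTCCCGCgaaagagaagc
In the Dnmt1 stretch the match reads TTTCGCGC on the other strand. A match of letters is a description of sequence and shows no binding.

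Of the de novo methyltransferases, Dnmt3a had the smallest fold change of the 10 genes. Dnmt3a (chr12:3806007-3914443, plus strand), which methylates unmodified CpG and reads H3K36 methylation, had 58.8, 57.9, 53.1 and 57.6 CPM in Smad4Vil-KO libraries and 56.1, 51.7, 61.8, 59.7 and 58.6 CPM in Smad4Vil-KO;Setd2Vil-KO libraries. The genotypes overlapped fully, and the log2 fold change was 0.02 (95% interval -0.15 to 0.19, edgeR adjusted p = 0.892), which bounds the fold difference between 0.901 and 1.14. Dnmt3b (chr2:153649450-153687730, plus strand), the de novo enzyme most closely tied to gene bodies, had 5.3, 6.7, 5.1 and 6.3 CPM against 5.7, 6.1, 5.2, 5.3 and 5.7 CPM. Its log2 fold change was -0.06 (95% interval -0.41 to 0.28, edgeR adjusted p = 0.816) on 67 to 112 counts per library. The log2 ratio of Dnmt3b to Dnmt3a was -3.28 ± 0.157 against -3.36 ± 0.194 (exact permutation p = 0.571, adjusted p = 0.571). Of the 50-base stretches of Dnmt3b transcripts, 11.5% also occur in its paralogue Dnmt3c, which has no row in the count table, whereas Dnmt3a shares none with another gene. The genes whose deviations were most like those of Dnmt3a were Uprt, Zfp866 and C2cd3 (r = 0.969, 0.952 and 0.951), and for Dnmt3b they were Lrrc57, Gm20590 and Tlr2 (r = 0.934, 0.921 and 0.908).

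**Figure D4:**
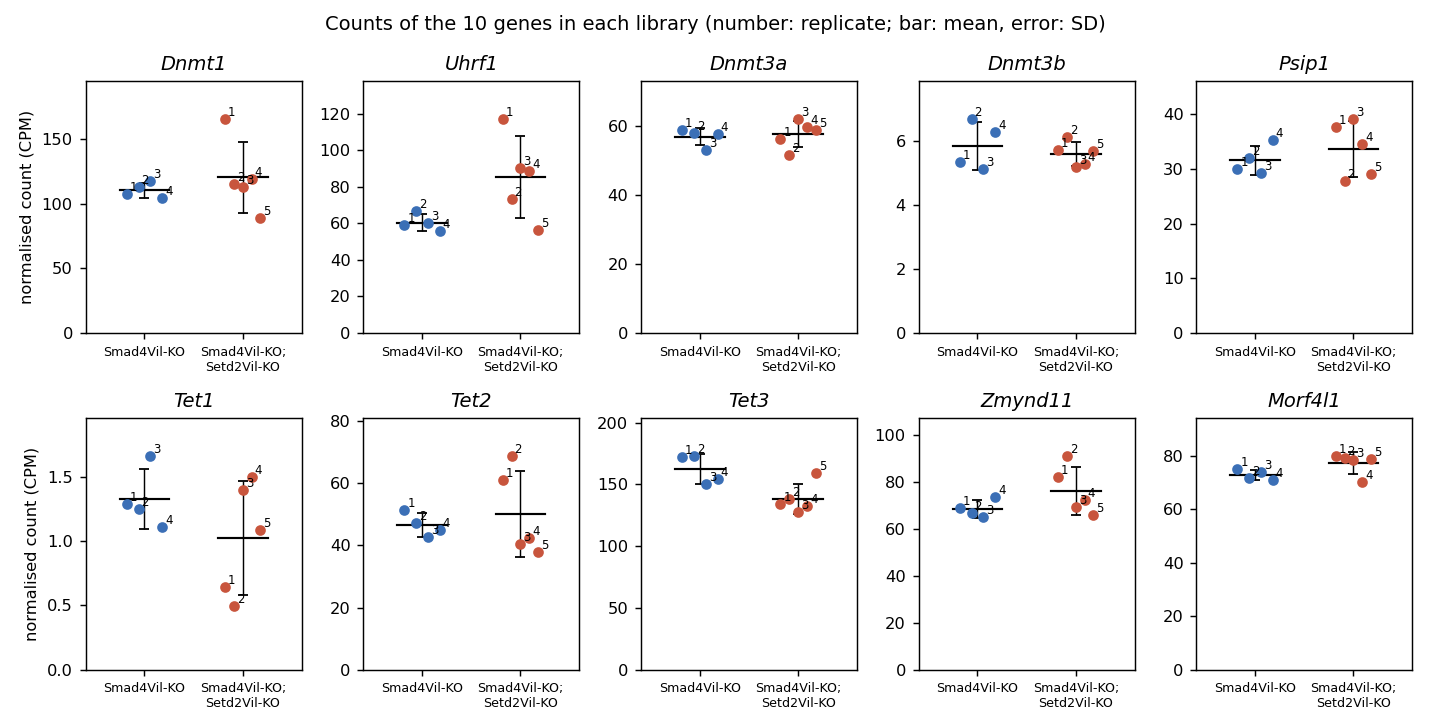
Normalised count (CPM, vertical axes from 0) of each of the 10 genes in every library, with the replicate number beside each point and the mean and SD of each genotype. Dnmt3a and Dnmt3b overlap between genotypes, Uhrf1 is above the Smad4Vil-KO range in 4 of 5 Smad4Vil-KO;Setd2Vil-KO libraries, and replicates 1 and 2 are the highest for Tet2 and Zmynd11 and the lowest for Tet1.

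None of the Tet enzymes passed the edgeR test. Tet3 (chr6:83362373-83459084, minus strand), the most abundant of them here, had 173, 173, 150.3 and 154 CPM in Smad4Vil-KO libraries and 134, 138, 127, 132 and 159 CPM in Smad4Vil-KO;Setd2Vil-KO libraries. Replicates 1 to 4 of the latter were below all Smad4Vil-KO libraries, and replicate 5 lay among them. The mean was 163 ± 11.9 against 138 ± 12.4 CPM, a log2 fold change of -0.23 (95% interval -0.42 to -0.05, edgeR adjusted p = 0.0932). Tet3 was called lower by limma-voom with quality weights (adjusted p = 0.0484) and not by DESeq2 (adjusted p = 0.0675). Without Smad4Vil-KO;Setd2Vil-KO replicate 5 its log2 fold change was -0.28 (edgeR adjusted p = 0.0350).

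Tet2 (chr3:133463679-133545139, minus strand), the Tet enzyme often mutated in blood cancers, had 51.4, 47.3, 42.7 and 44.8 CPM in Smad4Vil-KO libraries and 61.1, 68.7, 40.6, 42.3 and 37.9 CPM in Smad4Vil-KO;Setd2Vil-KO libraries. Replicates 1 and 2 were above, and replicates 3 to 5 below, every Smad4Vil-KO library. The mean of 46.5 ± 3.75 against 50.1 ± 13.8 CPM (log2 fold change 0.11, edgeR adjusted p = 0.712) therefore averaged libraries on both sides, and without replicates 1 and 2 the log2 fold change was -0.20 (edgeR adjusted p = 0.150). Tet1 (chr10:62804570-62908996, minus strand), the family member of pluripotent and germ cells, had 1.3, 1.2, 1.7 and 1.1 CPM against 0.6, 0.5, 1.4, 1.5 and 1.1 CPM. Here replicates 1 and 2 were the lowest of all 9 libraries, and the log2 fold change of -0.38 (95% interval -1.16 to 0.40, edgeR adjusted p = 0.492) became 0.003 without them. The log2 ratio of Tet3 to Tet2 was 1.80 ± 0.052 in Smad4Vil-KO and 1.502 ± 0.431 in Smad4Vil-KO;Setd2Vil-KO libraries (exact permutation p = 0.278, adjusted p = 0.347), lower than every Smad4Vil-KO library in 4 of 5 and higher in replicate 5. Without replicate 5 the difference of this ratio was -0.44 in place of -0.30 (exact permutation adjusted p = 0.0476).

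Replicates 1 and 2 thus set much of the spread in several genes. Within genotypes, the deviations of Tet2 and Zmynd11 correlated at r = 0.91, those of Tet1 and Tet2 at r = -0.884, and those of Tet1 and Zmynd11 at r = -0.873, as descriptions over 9 libraries in which 2 points carry much of the range. Uhrf2, the paralogue of Uhrf1, had 105, 122, 105 and 111 CPM in Smad4Vil-KO libraries and 47.2, 49.0, 101, 90.4 and 113 CPM in Smad4Vil-KO;Setd2Vil-KO libraries, so it was low in replicates 1 and 2 (log2 fold change -0.47, edgeR adjusted p = 0.218). These are the libraries with the lower mitochondrial share, whose part was not tested. They also have Y-linked counts, whose part was not tested either. Replicate 5 has such counts too, at a mitochondrial share of 9.82%, with Tet2, Zmynd11 and Uhrf2 at 37.9, 65.8 and 113 CPM. With Y-linked counts as a covariate the log2 fold changes were -0.17 for Tet2, 0.12 for Tet1, 0.04 for Zmynd11 and -0.21 for Uhrf2, none of them called. The genes most like Tet2 in their deviations were Bach1, Mapk8 and Herpud1 (r = 0.984, 0.983 and 0.982), those most like Tet1 were Rnaseh2c, Slc30a6 and Prkcsh (r = 0.983, 0.979 and 0.977), and among those most like Tet3 were Ripk1 and Lnx2 (r = 0.942 and 0.931).

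The H3K36me3 readers did not pass the test. Psip1 (chr4:83455680-83486459, minus strand), which encodes LEDGF/p75, a tether of MLL complexes to transcribed chromatin, had 29.96, 32.0, 29.2 and 35.2 CPM in Smad4Vil-KO libraries and 37.8, 27.8, 39.1, 34.6 and 29.1 CPM in Smad4Vil-KO;Setd2Vil-KO libraries. The ranges overlapped (log2 fold change 0.09, 95% interval -0.17 to 0.36, edgeR adjusted p = 0.638). Of its exon bases, 483 overlap Snapc3 on the opposite strand, which had 660 to 921 counts, and since no strand setting is given in the sources used here, reads from the shared bases cannot be assigned. Zmynd11 (chr13:9684833-9765330, minus strand), a reader of H3K36me3 on H3.3 that restrains transcription elongation, had 68.6, 66.7, 64.8 and 73.6 CPM against 81.8, 90.8, 69.0, 72.1 and 65.8 CPM. Replicates 1 and 2 were above all Smad4Vil-KO libraries and the others lay within their range (log2 fold change 0.15, 95% interval -0.07 to 0.37, edgeR adjusted p = 0.341). Without those replicates it was 0.02.

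Morf4l1 (chr9:90091665-90114774, minus strand), which encodes the chromodomain protein MRG15 of the NuA4 and Sin3 complexes, was the steadiest of the 10 genes in Smad4Vil-KO libraries, at 74.9, 71.8, 73.7 and 71.0 CPM (coefficient of variation 2.44%). It had 79.8, 79.3, 78.3, 70.2 and 78.6 CPM in Smad4Vil-KO;Setd2Vil-KO libraries. Replicates 1, 2, 3 and 5 were above the Smad4Vil-KO range and replicate 4 was below it (log2 fold change 0.08, 95% interval -0.07 to 0.23, edgeR adjusted p = 0.426). Its value is less certain than its spread, because 46.9% of its 50-base stretches occur in other genes, mainly the processed copy Morf4l1-ps1 with 125 to 217 counts. Summed with Morf4l1-ps1 and Morf4l1b, the level was 90.5 ± 2.91 against 93.0 ± 4.62 CPM. Uhrf1 shares 18.9% of its stretches with other genes, but its copy Gm5648 had at most 4 counts. The deviations most like those of Psip1 were of Fignl1, Nudc-ps1 and Nap1l1 (r = 0.962, 0.956 and 0.951), those most like Zmynd11 were of Tmem243, 9130024F11Rik and Mef2a (r = 0.98, 0.978 and 0.974), and those most like Morf4l1 were of Manbal, Ssu72 and Ccdc149 (r = 0.929, 0.924 and 0.924).

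Genes that work with these enzymes and readers were described next, beside the background of 13.3% called among all genes. Of 15 partners of DNA methylation, 11 were tested and 2 were called, both higher. Hells, the chromatin remodeller that opens nucleosomes for DNA methylation, had 40.5, 43.0, 35.8 and 46.9 CPM in Smad4Vil-KO libraries and 102, 67.1, 79.0, 77.9 and 44.0 CPM in Smad4Vil-KO;Setd2Vil-KO libraries. Its log2 fold change was 0.83 (SE 0.198, edgeR adjusted p = 0.0212), and replicate 5 alone lay in the Smad4Vil-KO range, as for Uhrf1. Pclaf, a PCNA-bound factor that recruits DNMT1 when ubiquitylated by UHRF1, rose from 50.5 ± 5.44 to 76.1 ± 14.7 CPM (log2 fold change 0.59, edgeR adjusted p = 0.0223). Pcna, the replication clamp, was at 108 ± 3.78 against 134 ± 21.2 CPM (edgeR adjusted p = 0.0920), and the deubiquitylase Usp7 was at 228 ± 7.30 against 234 ± 7.62 CPM (edgeR adjusted p = 0.705). The median log2 fold change of the 11 was 0.19. Of 3 partners of the de novo enzymes and imprints in the table that were not tested, Dnmt3l had at most 0.16 CPM.

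Of 16 genes of DNA demethylation downstream of or beside the Tet enzymes, all tested, 3 were higher and 1 lower. Cxxc4, the CXXC protein that partners with TET2 and was also picked by the study for RT-qPCR, rose from 1.245 ± 0.281 to 4.91 ± 1.64 CPM with no overlap (log2 fold change 1.97, SE 0.304, edgeR adjusted p = 0.00300). Apex1, the abasic site endonuclease, rose from 31.4 ± 3.79 to 46.4 ± 7.19 CPM (log2 fold change 0.57, edgeR adjusted p = 0.0179), while Xrcc1, the scaffold of the later repair step, fell from 27.96 ± 4.17 to 20.4 ± 2.11 CPM (log2 fold change -0.46, edgeR adjusted p = 0.0338), both without overlap. Gadd45a, a stress gene linked to demethylation, was higher by a log2 fold change of 0.48 (edgeR adjusted p = 0.0367). The median log2 fold change of the list was -0.003, so that the list as a whole showed no common direction.

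Among 18 tested genes of 20 other readers of methylated H3K36, 3 were lower and none was higher. Hdgfl2, a PWWP protein related to HDGF, fell from 39.4 ± 1.71 to 26.9 ± 2.67 CPM (log2 fold change -0.55, SE 0.0919, edgeR adjusted p = 0.00454). Phf1 and Phf19 encode Tudor-domain accessory subunits of Polycomb repressive complex 2. They fell by 0.52 and 0.80 on the log2 scale (edgeR adjusted p = 0.0124 and 0.0403), Phf19 at a low level of 3.80 ± 0.627 against 2.19 ± 0.439 CPM. Mtf2, another such subunit in the list, went the other way without a call. It was at 56.3 ± 8.09 against 67.1 ± 8.12 CPM (log2 fold change 0.25, edgeR adjusted p = 0.172). For the 3 genes called lower all Smad4Vil-KO;Setd2Vil-KO libraries were below (8.87% of all genes), and for Glyr1 and Morf4l2 all were above (8.34% of all genes) without a call (log2 fold changes 0.21 and 0.16, edgeR adjusted p = 0.0907 and 0.148). The median log2 fold change of the 18 was 0.12. Msh6, the mismatch repair subunit with a PWWP domain, was at 56.6 ± 5.65 against 62.2 ± 8.53 CPM (edgeR adjusted p = 0.438).

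Of 27 partners of Psip1 and Morf4l1, 26 were tested, 3 were higher and 1 was lower. Hdac1, the deacetylase of the Sin3 complex, rose from 67.4 ± 5.09 to 107 ± 17.1 CPM (log2 fold change 0.67, SE 0.118, edgeR adjusted p = 0.00568). Brca2, which meets MRG15 through PALB2, had a log2 fold change of 0.95 (edgeR adjusted p = 0.0371), and Iws1, an elongation factor bound by LEDGF/p75, one of 0.25 (edgeR adjusted p = 0.0493). Phf12, a Sin3 subunit, fell by 0.33 on the log2 scale (edgeR adjusted p = 0.0464). The median of the 26 was 0.04.

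**Figure D5:**
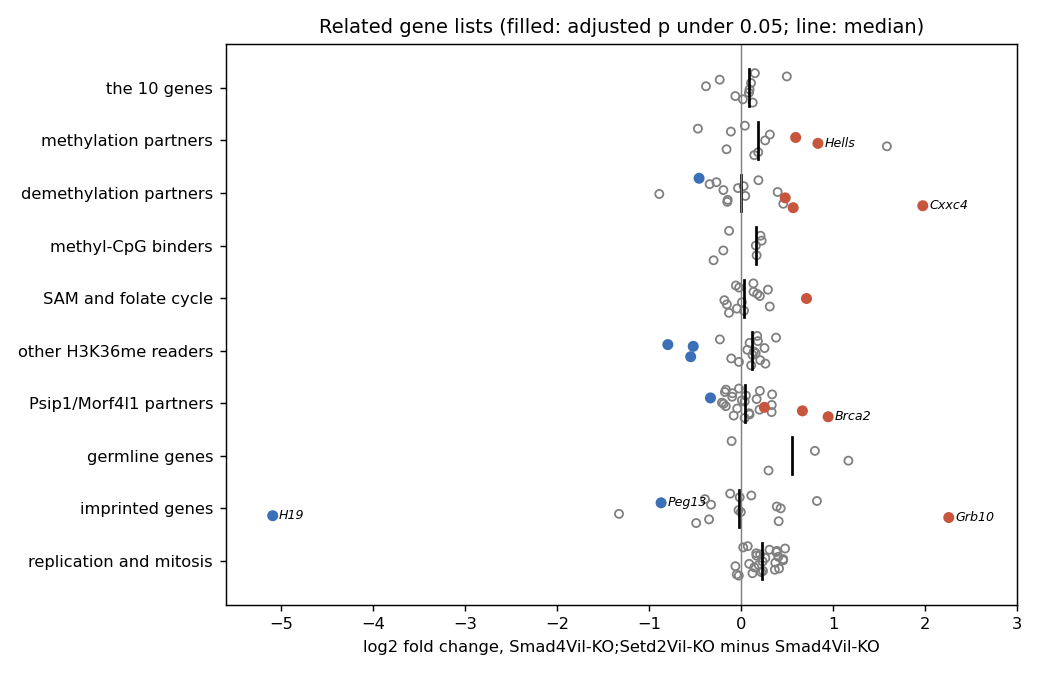
Log2 fold change (Smad4Vil-KO;Setd2Vil-KO minus Smad4Vil-KO, horizontal axis) of each tested gene in the 10 genes and in 9 related lists, with filled points for an edgeR adjusted p under 0.05 and a line at each median. The 10 genes hold no filled point, the other H3K36me readers hold 3 to the left, and H19 stands at -5.09.

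Genes whose silencing or parental expression rests on DNA methylation were also read. Of 26 germline genes that promoter methylation keeps silent in somatic cells, 22 were too low to test, 14 of them with at most 3 counts in every library. None of the 4 tested was called (0 of 4 by DESeq2 and by limma-voom). At an unadjusted p under 0.05 in edgeR 2 of the 4 were higher, beside 15.3% of all genes. The summed level of the 26 genes was 5.71 to 8.34 CPM in Smad4Vil-KO and 6.36 to 12.6 CPM in Smad4Vil-KO;Setd2Vil-KO libraries. Of 30 imprinted genes, 17 were tested, 1 was higher and 2 were lower. The maternally expressed RNA H19 had 1.73, 17.2, 20.8 and 38.7 CPM in Smad4Vil-KO libraries and 0.13, 0.28, 0.91, 0.94 and 0.62 CPM in Smad4Vil-KO;Setd2Vil-KO libraries (log2 fold change -5.09, SE 0.773, edgeR adjusted p = 0.00281), with a wide spread in the former. The non-coding RNA Peg13 fell from 10.5 ± 0.68 to 5.77 ± 1.92 CPM (edgeR adjusted p = 0.0246), and the adaptor gene Grb10 rose from 0.697 ± 0.466 to 3.31 ± 1.93 CPM (edgeR adjusted p = 0.0371). DNA methylation itself was not measured in these files.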

How the data were processed

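mRNA libraries of IECs from AOM/DSS-treated mice were sequenced by the authors, and the submitters' notes name HISAT2 2.0 and mm10. The deposited table holds raw counts per gene symbol, made by the authors; the counting program, its annotation and any strand setting are not given in the sources used here. Of the 46095 rows, 27 carry a date in place of a symbol. The 9 libraries held 12487129 to 17120202 counts. Genes were filtered with filterByExpr, scaled by TMM and tested by edgeR 4.0.16 quasi-likelihood with Benjamini-Hochberg adjustment over 14593 genes (threshold 0.05), in R 4.3.3. DESeq2 1.42.0 and limma-voom with sample quality weights (limma 3.58.1; weights and test change together), other scalings, filters and thresholds, each library left out, the replicate number as a block and Y-linked counts were alternatives. After the data were seen, Morf4l1 copies were summed, and Smad4Vil-KO;Setd2Vil-KO replicates 1 and 2 were left out. Log2 CPM used a prior count of 0.5. Coordinates, exon lengths and shared 50-base stretches came from GENCODE vM21, promoters from RefSeq GRCm38.p6. Scripts were tested on simulated data. The 10 genes, the related lists and the tests were chosen with earlier results of these data known. All 10 genes, Setd2 and Smad4, the genes called in each list with a mean of at least 1 CPM (at most 5) and the 3 genes most alike in deviations were named; others were chosen after their values were seen. Some genes that this rule covers are not reported here.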

Additional observations from a re-analysis of the deposited data

Results flagged for a closer look

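Among 34 groups of 4 or 5 libraries checked for 1 library far from the rest, 2 were found, where chance alone gives about 1 in 20. Morf4l1 was lowest in Smad4Vil-KO;Setd2Vil-KO replicate 4, at 70.2 CPM, when the other 4 libraries ran from 78.3 to 79.8 CPM. Smad4 was highest in Smad4Vil-KO replicate 1, at 92.7 CPM, when the other 3 libraries ran from 54.3 to 55.4 CPM. Smad4 carries the Cre deletion in both genotypes, so its level is no check of the difference between them (log2 fold change 0.13, edgeR adjusted p = 0.819).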

How the results depend on the processing

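Of the related lists, the counts were refitted with DESeq2 and limma-voom and, of single genes, Hells, Pclaf and Uhrf2 under 4 alternatives, where Hells and Pclaf were called in each. The number of the 10 genes called higher was 1 in place of 0 (Uhrf1) under DESeq2, limma-voom, the replicate block, the 6 libraries without Y-linked counts and an adjusted p under 0.1, and the number called lower was 1 (Tet3) under limma-voom, the libraries without Y-linked counts and an adjusted p under 0.1. With each library left out in turn both numbers ran from 0 to 1, reaching 1 without Smad4Vil-KO;Setd2Vil-KO replicate 5. Without Smad4Vil-KO;Setd2Vil-KO replicates 1 and 2 both were 0. Under a term for Y-linked counts both were 0 as well. Uhrf1 kept a log2 fold change between 0.36 and 0.63 over 23 alternatives (adjusted p from 0.00265 to 0.169) and Tet3 one between -0.32 and -0.20 (adjusted p from 0.0349 to 0.217). The signs of Dnmt1, Dnmt3a, Dnmt3b, Tet1 and Tet2, none of them called, changed under at least 1 alternative. Over all genes, 986 higher and 955 lower became 653 and 632 with a term for Y-linked counts, 293 and 279 at an adjusted p under 0.01, and 1553 and 1554 at an adjusted p under 0.1. The number lower was 1525 under limma-voom and 1524 in the libraries without Y-linked counts. With a library left out they ran from 455 to 1380 higher and from 392 to 1316 lower. The ratio of Uhrf1 to Dnmt1 differed by 0.312 to 0.397 with a library left out (adjusted exact permutation p from 0.0476 to 0.0893), by 0.499 in the libraries without Y-linked counts and by 0.397 under the replicate block, and that of Uhrf1 to the replication genes by 0.231 to 0.296, 0.315 and 0.296. The libraries without Y-linked counts and the replicate block have too few splits for any call, so their missing calls say nothing about stability. With a library left out the splits are fewer, but a call was not excluded. Both Uhrf1 ratios were called without Smad4Vil-KO;Setd2Vil-KO replicate 5 and were not called when any other library was left out. The ratio of Tet3 to Tet2 differed by -0.444 to -0.179 with a library left out and by -0.156 in the libraries without Y-linked counts, and was called without Smad4Vil-KO;Setd2Vil-KO replicate 5. The cause was not tested. Same-numbered libraries correlated at -0.156 to 0.0291, so no pairing by number was seen, though these correlations cannot exclude it. The replicate block, with a log2 fold change of 0.61 for Uhrf1 (edgeR adjusted p = 0.0357), is given for completeness. DESeq2 and limma-voom called 7 of the 16 demethylation genes in place of 4. Over all genes DESeq2 called 10% higher and 9.12% lower and limma-voom called 20.1%, against 13.3% by edgeR. Tet1, at 7 to 27 counts per library, is limited by depth.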

Other observations

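Of 7 proteins that bind methylated CpG, all tested, none was called by edgeR and 1 was called by DESeq2 and by limma-voom. At an unadjusted p under 0.05 in edgeR 1 was lower, beside 15.3% of all genes. Of 19 enzymes of the S-adenosylmethionine and folate cycles, which supply the methyl groups, 15 were tested and 1 was called. Mthfd1l, a mitochondrial folate enzyme, rose from 22.8 ± 1.88 to 37.1 ± 11.4 CPM (log2 fold change 0.71, edgeR adjusted p = 0.0402), and the median log2 fold change of the 15 was 0.03.

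Uhrf1bp1l, which shares a name with Uhrf1 but is another gene, was higher by a log2 fold change of 0.56 (edgeR adjusted p = 0.0169), from 68.1 to 101 CPM.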
